A study of Mus musculus with 203 samples.

Results

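ACV neurons are the larger of the 2 types of heart-labeled neurons in the nucleus ambiguus (Amb) of the mouse brainstem, and 98 neurons carry this type in the deposited annotation. They were taken as annotated, and the rest of the series, 53 ACP neurons, the other heart-labeled type, and 52 Laryngeal neurons, was used only as reference. C57BL/6NCrl mice, given as C57BL/6 in the labels, received fluorescent cholera toxin B, a tracer taken up at nerve terminals, at postnatal day 1 in the pericardial space around the heart or in the cricothyroid muscle of the larynx. Labeled cell bodies were aspirated from brainstem slices at postnatal days 2 to 4 and made into full-length cDNA by Smart-seq2, so each sample is 1 neuron. All neurons came from wild-type animals, and the tracer labels a neuron by the tissue its axon reaches, not by its function. The mouse and plate of each neuron were not given in the labels.

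The Amb holds cholinergic motor neurons of the vagus nerve. Some send preganglionic axons to parasympathetic ganglia on the heart, where acetylcholine slows the beat, and others drive muscles of the larynx and pharynx. Their inputs reach them through receptors for fast transmitters, amines and peptides, so the receptor genes a neuron expresses describe which signals could act on it.

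Total counts of the ACV neurons ran from 840315 to 3116633, the median neuron having 1825370. Rn45s, a ribosomal RNA precursor, took 12.4% to 82.5% of them, with a median of 35.8%, against medians of 34.3% in ACP and 58.6% in Laryngeal neurons. Levels are therefore given as CPM, which are counts per 1000000 counts outside Rn45s, and 4257 to 12306 genes had at least 1 read in an ACV neuron, with a median of 7626. Apoe counts were above 1800, the limit stated by the study for removal, in 28 of the 98 neurons as deposited. Neurons AMB120, AMB126, AMB133 and AMB140 shared 9 to 36 rarely read genes with each other, while the median over pairs of the other ACV neurons was 0 and the highest was 18. Types are clusters of these same counts and no animal is named, so differences between types are descriptions without a test.

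All 5 markers of the label stood higher in ACV than in both references. Hoxa5, a homeobox transcription factor gene, had 0 CPM in the lowest ACV neuron, 356 in the median neuron and 1818 in the highest. Reads were present in 94 of 98 neurons (95.9%, exact 95% binomial interval 89.9% to 98.9%), against 20 of 53 ACP neurons (37.7%, 24.8% to 52.1%) and 19 of 52 Laryngeal neurons (36.5%, 23.6% to 51.04%). The ranges overlapped, since the highest ACP neuron reached 210.4 CPM. Mean levels were 443 ± 401 CPM (SD, n = 98) in ACV, 10.6 ± 32.02 (n = 53) in ACP and 12.6 ± 36.6 (n = 52) in Laryngeal neurons. Hoxa5 lies on the minus strand at chr6:52201754-52204587 of mm10 and codes for protein. The binomial intervals take neurons as independent, although neurons share mice that the labels do not name, so they cover no spread between animals. Reads without molecular identifiers are not independent molecules either.

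Cd9, which encodes a tetraspanin of the cell surface (chr6:125460266-125494791, minus strand), was the highest of the markers, with a median of 821 CPM and a highest level of 2911. It was read in 96 of 98 ACV neurons (97.96%) but also in 40 of 53 ACP neurons, so its difference was one of level. Mean levels were 889.8 ± 580.4 CPM in ACV, 75.3 ± 90.9 in ACP and 47.99 ± 90.8 in Laryngeal neurons. Bche encodes butyrylcholinesterase, an enzyme that can break down acetylcholine (chr3:73635808-73708415, minus strand). Its median was 67.3 CPM and its range 0 to 632 CPM, and 88 of 98 ACV neurons (89.8%) had a read, against 43.4% of ACP and 9.62% of Laryngeal neurons. The Bche mean of 99.44 ± 107.01 CPM in ACV stood beside 14.6 ± 28.02 in ACP and 1.33 ± 5.14 in Laryngeal neurons.

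The remaining markers are receptors that no ACP neuron showed. Ghsr, the receptor of the hormone ghrelin (chr3:27371351-27378010, plus strand), was read in 65 of 98 ACV neurons (66.3%, 56.1% to 75.6%), with 0 CPM in the lowest, 11.8 in the median and 221 in the highest neuron. Htr3b, a subunit of the ionotropic serotonin receptor (chr9:48935008-48964990, minus strand), was read in 49 of 98 (39.7% to 60.3%), with a median of 1.54 and a highest level of 303 CPM. Neither gene had a read in 53 ACP neurons, which allows a share of up to 5.66% by the limit of 3 neurons of 53 (exact interval up to 6.72%). Over summed reads the ACV level of Ghsr was 538 times, and that of Htr3b 1308 times, a floor of 3 counts over all ACP neurons. These ratios treat reads as independent, so they are no lower limit on the difference between types. Mean levels of Ghsr and Htr3b in ACV were 23.1 ± 33.9 and 52.7 ± 79.03 CPM, and in Laryngeal neurons 7.496 ± 23.5 and 2.55 ± 12.3 CPM. Without the 4 neurons that share rare genes the ACV means were 438 CPM for Hoxa5, 879 for Cd9, 99.3 for Bche, 22.6 for Ghsr and 47.99 for Htr3b.

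**Figure D1:**
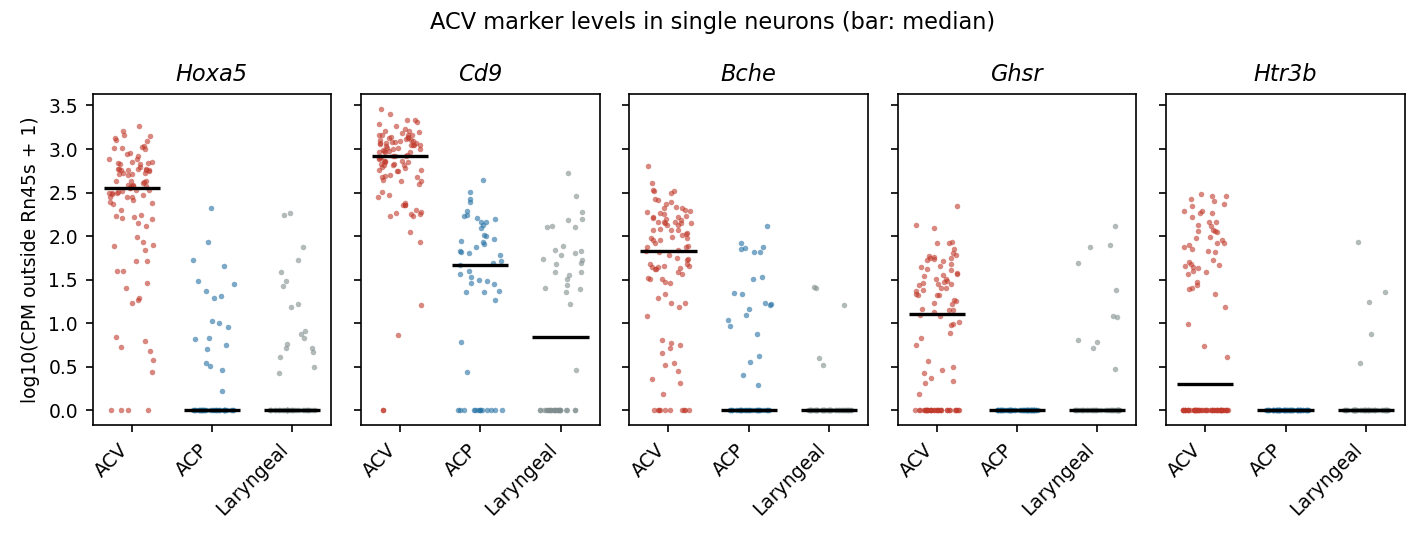
Level of the 5 ACV markers in each neuron of the 3 types, as log10 of CPM outside Rn45s plus 1, with 1 point per neuron and a bar at the median of each type. Cd9 and Hoxa5 are above 0 in nearly all 98 ACV neurons, Hoxa5 over a wider range of levels, while Ghsr and Htr3b are split between neurons at 0 and neurons with clear levels, and both are at 0 in all 53 ACP neurons.

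Individual ACV neurons carried the markers in different combinations. At 1 read or more, 40 neurons held all 5 markers, 31 held 4, 17 held 3, 7 held 2 and 3 held 1, and no neuron lacked all of them. At 10 CPM or more, a level chosen after the data were seen, 31 neurons held all 5, 28 held 4, 18 held 3, 16 held 2, 4 held 1 and 1 held none. No ACP or Laryngeal neuron held more than 3 at that level. The neurons with 1 marker or none were AMB057, AMB059, AMB083, AMB111 and AMB129, and Rn45s took 59.95%, 59.2%, 23.5%, 82.5% and 73.1% of their counts. All 5 expressed Slc18a3, the vesicular acetylcholine transporter, at 31.9 to 986 CPM. AMB111, the neuron without a marker at 10 CPM, had the fewest counts outside Rn45s of the type, 313668.

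Markers of the other types were scarcer in ACV neurons but not absent. The ACP list held Pappa2, Calb1, Trhr, Tacr3, Mc4r and Tbx2, and 48 ACV neurons reached 10 CPM for none of these, 32 for 1, 13 for 2, 3 for 3 and 2 for 4, whereas 9 of 53 ACP neurons reached it for all 6. ACV markers outnumbered ACP markers in 87 of the 98 neurons, equaled them in 5 and were fewer in 6. Pappa2, a protease of the insulin-like growth factor pathway, was read in 5 ACV neurons against 50 of 53 ACP neurons. Calb1, which encodes the calcium-binding protein calbindin, was read in 44 ACV neurons (44.9%), 35 of them at 10 CPM or more, with a mean of 38.8 ± 79.8 CPM against 175.8 ± 189.4 in ACP. Of the 6 Laryngeal markers, Calcb was read in 58 ACV neurons and Calca, which encodes calcitonin gene-related peptide, in 42, with means of 48.4 and 22.8 CPM against 1347 and 2095 in Laryngeal neurons. Calca reads in the ACV neurons that had any numbered 28 in the median neuron, and their source was not tested. Pnoc, Uts2, Dlk1 and Lhx4 were read in 37, 8, 23 and 10 ACV neurons.

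Of 17859 genes with a read in any ACV neuron, 7787 (43.6%) were read in at least 50% of the neurons, and 470 were read in every one. To compare genes with each other, levels were divided by exon length. Tuba1a, an alpha tubulin of growing axons, led at 6765 CPM per kilobase, with 12198 ± 4844 CPM over 98 neurons. Stmn3, a regulator of microtubules, followed at 2731 CPM per kilobase, then Tubb2a at 2577, the neurofilament light chain Nefl at 2284, the synuclein Sncg at 2277 and Tubb3 at 2269. Calm2, a calmodulin gene, reached 2229, and Gap43, a protein of growth cones, reached 1329 CPM per kilobase. Of the 30 genes highest per kilobase, Apoe, a glial lipid carrier, was the only gene not read in all 98 neurons, with 95. All 15 listed neurofilament and cytoskeleton genes had a mean of at least 5 CPM and none was 2-fold from its ACP mean. Nefh, the neurofilament heavy chain of large axons, was lower than in Laryngeal neurons by 2.20 on the log2 scale (180 ± 196.1 against 828 CPM), and Thy1 by 2.17, and with Rn45s in the total 4 of the 15 were 2-fold higher and 2 lower than in Laryngeal neurons. The 15 genes had a median log2 ratio of 0.06 to ACP and 0.15 to Laryngeal neurons, beside -0.01 and -0.04 over all genes compared.

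Every ACV neuron read both Slc18a3 and Chat, the enzyme that makes acetylcholine. Slc18a3 ran from 7.97 to 2658 CPM with a median of 673, and Chat from 1.22 to 1354 with a median of 144.2. On the scale per kilobase, the transporter genes Slc10a4 (299) and Slc18a3 (286) and the acetylcholinesterase gene Ache (232) stood above Slc5a7, the choline transporter (61.8), and Chat (37.4). All 9 cholinergic genes of the list were above 5 CPM, 4 of them 2-fold higher than in ACP neurons and none 2-fold lower. The 4 were Bche, Slc10a4, Colq, which anchors cholinesterase outside the cell, and the choline transporter Slc44a1, at log2 ratios of 2.69, 1.13, 1.36 and 1.05. Against Laryngeal neurons Bche was 2-fold higher (log2 ratio 5.43) and Slc18a3 2-fold lower (-1.12). With Rn45s in the total 1 of the 9 was higher and none, Slc18a3 included, was 2-fold lower. The median log2 ratio of the list to Laryngeal neurons then moved from -0.36 to 0.12. Genes of other transmitters were mostly low. Slc17a6, the vesicular glutamate transporter gene, reached 75.5 ± 210.4 CPM, with 20.7% of its summed level in AMB054. Nos1, the neuronal nitric oxide synthase, was at 22.3 ± 39.4 CPM and read in 48.98% of neurons, against 8.43 CPM in ACP and 8.27 in Laryngeal neurons. Ddc, which completes the synthesis of serotonin and dopamine, was at 38.1 ± 69.99 CPM, while Th was read in 11 neurons. Over the 17 other transmitter genes, 3 were 2-fold higher and 3 lower than in ACP of 9 compared, beside 5.78% and 7.69% of all genes. In the Laryngeal comparison 2 were higher and 5 lower of 11, beside 7.2% and 12.6%, or 2 higher and 1 lower of 8 with Rn45s in the total.

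Of the genes compared with ACP neurons, 673 of 11650 (5.78%) had a mean at least 2-fold higher in ACV and 896 (7.69%) at least 2-fold lower, on means plus 1 CPM. Against Laryngeal neurons 853 of 11844 (7.2%) were higher and 1494 (12.6%) lower. These splits depended on whether Rn45s entered the total, which gave 358 higher and 715 lower against ACP, and 2073 higher and 441 lower against Laryngeal neurons, where the median of all genes moved from -0.04 to 0.51 on the log2 scale. Under that total 1110 of the 2347 genes called against Laryngeal neurons stayed 2-fold on the same side. Another 624 fell under the minimum mean of 5 CPM, and 2 turned to the opposite sign, neither of them in a list. Of the 1569 genes called against ACP, 992 stayed 2-fold on the same side and 370 fell under that minimum. Where that total turned the balance of higher and lower genes in a list, its counts are given beside it. Counts in a list are to be read beside the shares over all genes given here. Leaving out, gene by gene, the ACV neuron of highest level kept 415 of the 673 genes and 588 of the 853 at 2-fold. Both comparisons share the ACV neurons, so genes that stand high in both are given with both references side by side.

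The regulators of the Amb motor neuron were shared with the other types. Isl1, a homeobox gene of cranial motor neurons, was at 235 ± 190 CPM in ACV, 220 ± 171.5 in ACP and 201.9 ± 164.7 in Laryngeal neurons. It was read in 94 of 98 ACV neurons. Of 18 motor neuron transcription factors compared with ACP, 2 were 2-fold higher and 5 lower. Higher were Zfhx3 (139.2 against 33.3 CPM, log2 ratio 2.03) and Pbx3, a partner of Hox proteins on DNA (168.7 against 56.3 CPM, 1.57). Lower were the T-box gene Tbx2 (-2.57), the LIM domain gene Lmo4 (-2.27, at 67.1 ± 146.9 against 328 CPM), Foxp1 (-1.32), Onecut1 (-1.93) and Onecut3 (-2.38). Against Laryngeal neurons 3 of 19 were 2-fold higher, among them Tbx3 and Pbx3 at log2 ratios of 2.69 and 1.57, and 7 were lower, among them Phox2a (-3.93) and Nkx6-2 (-1.97).

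Hox genes, which pattern the hindbrain and spinal cord from front to back in the order of their numbers, were read in a narrow range of numbers. Of 39 listed Hox genes with a row, 12 had a mean of at least 5 CPM and 15 had no read in ACV. On the scale per kilobase Hoxa5 (236) led Hoxb5 (66.6), Hoxc4 (28.3) and Hoxc5 (18.4). Hoxb5 was at 185.4 ± 309 CPM in ACV, read in 86.7% of neurons, against 13.6 CPM in ACP and 19.4 in Laryngeal neurons. Hoxc4 was at 72.6 ± 49.2 CPM and read in 92.9%, against 10.5 and 11.98 CPM. Hoxc5 was at 56.8 ± 85.4 CPM and read in 57.1%, against 0.721 and 3.03 CPM. Hoxa5 and Hoxb5 both reached 10 CPM in 74 ACV neurons, in 6 ACP neurons and in 7 Laryngeal neurons. Hoxa5, Hoxb5 and Hoxc5 all did so in 47 ACV neurons (47.96%), in 1 ACP neuron and in no Laryngeal neuron. Hoxa4 (27.8 CPM) was the fifth gene of the list 2-fold above ACP (log2 ratio 2.15), but it was at 25.2 CPM in Laryngeal neurons, where the fifth was Hoxb3 (1.05). The lower-numbered genes Hoxa2, Hoxb2 and Hoxd3 lay between 14.2 and 16.8 CPM in ACV and were within 2-fold of both references. No Hox gene was 2-fold lower than in either reference.

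**Figure D2:**
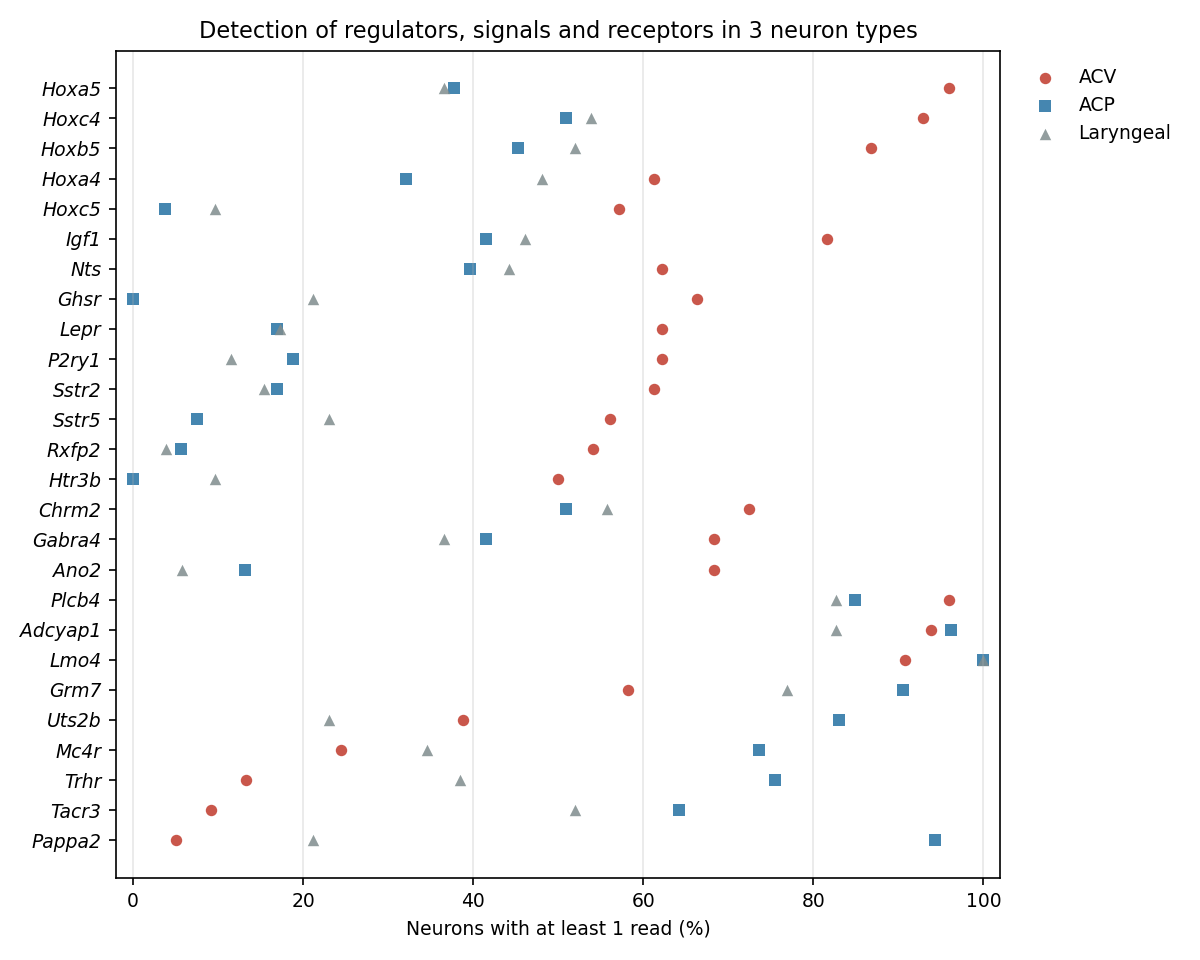
Share of neurons with at least 1 read, in percent, for 26 regulators, secreted signals and receptors in 98 ACV, 53 ACP and 52 Laryngeal neurons. Hox genes of groups 4 and 5 and the receptors from Ghsr to Htr3b stand to the right in ACV, while Mc4r, Trhr, Tacr3 and Pappa2 stand to the left at 24.5%, 13.3%, 9.18% and 5.10%.

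Fast excitatory receptors were mostly above 5 CPM in ACV. Of 18 ionotropic glutamate receptor genes 15 were above 5 CPM, led by Gria2 (397 ± 310 CPM, all 98 neurons), Gria4 (151.7 ± 140.97) and the NMDA receptor subunit Grin2b (121.5 ± 79.02, all 98 neurons). None of 17 was 2-fold higher than in either reference, beside 5.78% and 7.2% of all genes compared with ACP and Laryngeal neurons, 3 of 17 were 2-fold lower than in ACP and 10 of 17 lower than in Laryngeal neurons, the latter 4 of 15 with Rn45s in the total. Their median log2 ratios were -0.49 and -1.23. The metabotropic receptor Grm5 was at 116.1 ± 135.5 CPM and read in 98.98% of ACV neurons, against 317 CPM in ACP, and Grm7 was lower than in both references (21.9 against 108.8 and 79.4 CPM). In that metabotropic list none of 7 was higher, 3 were lower than in ACP and 2 lower than in Laryngeal neurons. With Rn45s in the total the Laryngeal comparison gave 1 higher and 1 lower of 6.

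The inhibitory receptors differed by subunit. Gabra4 stood higher in ACV at 32.1 ± 44.02 CPM against 7.24 in ACP and 14.7 in Laryngeal neurons, and Gabrb1 was at 181.8 ± 159.2 against 97.77 and 48.999 CPM. The glycine receptor subunit Glrb was lower, at 117.9 ± 116.7 CPM against 246 and 274. Of 21 GABA and glycine receptor and chloride transporter genes compared with ACP, 1 was higher and 6 were lower. Against Laryngeal neurons 4 of 20 were higher, Gabra2, Gabra4, Gabrb1 and Glra3, and 7 lower, beside 7.2% and 12.6% of all genes. The metabotropic GABA receptor Gabbr1 was at 223 ± 182.4 CPM and read in 98.98% of neurons.

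Acetylcholine receptors were led by the nicotinic subunits Chrnb2 (139.04 ± 151.9 CPM) and Chrna3 (59.8 ± 73.3 CPM) and the muscarinic receptor Chrm2 (81.1 ± 97.9 CPM). Chrm2, an inhibitory receptor known as an autoreceptor, was read in 72.4% of ACV neurons and stood against 27.7 CPM in ACP and 35.1 in Laryngeal neurons. It was the gene 2-fold higher than ACP among 6 compared, with 2 lower, and the Laryngeal comparison gave 2 higher and 3 lower of 7, or 2 higher and 1 lower of 4 with Rn45s in the total. Among 14 serotonin receptors only Htr3b, Htr3a and Htr2c were above 5 CPM. Htr3a, the subunit without which Htr3b forms no working channel, was at 41.5 ± 91.05 CPM and read in 37.8% of ACV neurons, against 13.9 CPM in ACP and 123.1 in Laryngeal neurons. At 10 CPM or more, 46 ACV neurons had Htr3b, 34 had Htr3a and 27 had both, which is 58.7% of the first and 79.4% of the second. Htr7 (4.58 CPM) was lower than in ACP (29.2) and Laryngeal neurons (12.8). In all 5 serotonin receptors of 8 compared were lower than in ACP and 2 higher, beside 7.69% and 5.78% of all genes. In the Laryngeal comparison 6 were lower and 1 higher, beside 12.6% and 7.2%.

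The purine receptor P2ry1, which ADP activates, was at 30.7 ± 55.3 CPM and read in 62.2% of ACV neurons, against 3.20 CPM in ACP and 0.470 in Laryngeal neurons. Of 9 purine receptors compared with ACP, 4 were higher and 1 lower, beside 5.78% and 7.69% of all genes. The other 3 higher genes, P2ry6, P2ry12 and P2ry13, were read in only 9, 18 and 7 ACV neurons. P2ry12 is a microglial gene, and microglial markers also stood higher in ACV, as given below. The Laryngeal comparison gave 3 higher and 3 lower of 10, or 2 higher and none lower of 6 with Rn45s in the total. Adrenergic receptors were sparse, with Adra1a the highest at 19.01 ± 40.3 CPM, and Adra2a was lower than in ACP (7.94 against 40.9 CPM). None of 4 was 2-fold higher than in ACP and 1 of 6 was higher than in Laryngeal neurons, which was Adra1a, at 1.009 on the log2 scale and no longer counted under TMM library sizes.

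Receptors for peptides and hormones differed from the references in both directions. Of 73 listed genes 33 were above 5 CPM in ACV. Against ACP 10 of 43 were higher and 14 lower, beside 5.78% and 7.69% of all genes. Against Laryngeal neurons 12 of 46 were higher and 18 lower, beside 7.2% and 12.6%. The median log2 ratios of the list were -0.55 and -0.74. With Rn45s in the total the Laryngeal comparison gave 14 higher and 9 lower of 34, and a median of 0.47. Rxfp2, the receptor of insulin-like peptide 3, was at 31.3 ± 52.98 CPM and read in 53 ACV neurons, against 3 ACP and 2 Laryngeal neurons. The somatostatin receptor Sstr2 was at 52.8 ± 71.2 CPM and read in 61.2%, against 4.80 CPM in ACP and 4.35 in Laryngeal neurons. Its relative Sstr5 was at 45.9 ± 72.8 CPM and read in 56.1%, against 4.84 and 18.05 CPM. The leptin receptor Lepr was at 17.5 ± 34.4 CPM and read in 62.2%, against 1.67 and 5.46 CPM. Beside these and Ghsr, the genes higher than in ACP were Npffr1, Npy4r, Prlr, Rxfp1 and Sstr3, read in 25, 24, 42, 17 and 15 ACV neurons.

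Some receptors were within 2-fold of ACP neurons or lower. The cannabinoid receptor Cnr1 was at 118.5 ± 128.7 CPM and read in 91.8% of ACV neurons, against 224 CPM in ACP and 17.1 in Laryngeal neurons. Npy2r, a receptor of neuropeptide Y, was at 44.5 ± 84.8 CPM against 61.9 and 0.866 CPM. The nociceptin receptor Oprl1 was the highest of the list at 163.6 ± 212 CPM, within 2-fold of both references. Tacr3, a tachykinin receptor, was at 0.597 CPM in ACV against 83.8 in ACP and 60.9 in Laryngeal neurons. Trhr, the receptor of thyrotropin-releasing hormone, was at 4.82 against 158.1 and 20.6 CPM, with 1 ACV neuron (AMB111) holding 41.2% of the summed level. The PACAP receptor Adcyap1r1 was at 69.3 ± 92.7 CPM, against 134.5 in ACP and 299 in Laryngeal neurons. Glp1r, the receptor of glucagon-like peptide 1, was read in 14 ACV neurons and reached 10 CPM in 9 of them.

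No receptor of this set was present in all ACV neurons. At 10 CPM or more Ghsr was found in 51, Sstr2 in 51, P2ry1 in 48, Htr3b in 46, Rxfp2 in 40 and Lepr in 34 neurons. Thinning every neuron to 200000 counts outside Rn45s gave 51, 53, 49, 47, 40 and 37. Counting these 6 receptors, chosen after their levels were seen, 11 ACV neurons held none, 18 held 1, 16 held 2, 17 held 3, 16 held 4, 15 held 5 and 5 held all 6. In ACP 42 neurons held none, 8 held 1 and 3 held 2, and in Laryngeal neurons 35 held none, 15 held 1, 1 held 2 and 1 held 3. Ghsr and Htr3b occurred together in 35 neurons, which is 68.6% of the Ghsr and 76.1% of the Htr3b neurons, and 36 neurons had neither. Spearman's rho over the 98 neurons was 0.37 for that pair, 0.35 for Ghsr with Sstr2 and -0.05 for Sstr2 with P2ry1. Ghsr and Htr3b levels also went with the counts outside Rn45s in a neuron, at rho 0.39 and 0.41, and given genes read and the Rn45s share the partial rho of that pair was 0.21.

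**Figure D3:**
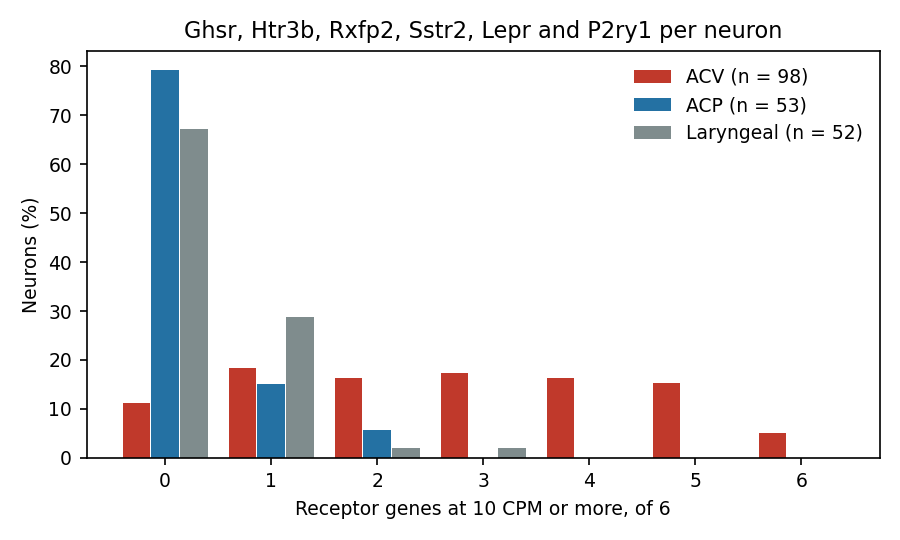
Number of 6 receptor genes (Ghsr, Htr3b, Rxfp2, Sstr2, Lepr and P2ry1) at 10 CPM or more in each neuron, as a percentage of the neurons of each type. ACV neurons spread over 0 to 6 receptors, with 11.2% at 0 and 5.10% at 6, while 79.2% of ACP and 67.3% of Laryngeal neurons are at 0.

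Among secreted signals the granin Scg2 was highest, at 1277 ± 774 CPM in all 98 neurons, within 2-fold of ACP and 2.07 higher than in Laryngeal neurons on the log2 scale. Igf1, insulin-like growth factor 1, was read in 81.6% of ACV neurons at 64.7 ± 78.4 CPM, against 8.45 CPM in ACP and 13.6 in Laryngeal neurons. Nts, neurotensin, was at 49.9 ± 89.6 CPM against 3.84 in ACP and 43.9 in Laryngeal neurons. The dynorphin precursor Pdyn was at 159.2 ± 262 CPM against 58.2 in ACP and 652 in Laryngeal neurons. PACAP, from Adcyap1, was lower than in ACP (141.999 ± 135.1 against 461 CPM), and so were Vgf (11.7 against 69.2) and Uts2b (15.1 against 93.8). Of 27 precursor genes compared with ACP, 7 were higher and 8 lower, beside 5.78% and 7.69% of all genes. Of 31 compared with Laryngeal neurons, 5 were higher and 13 lower, beside 7.2% and 12.6%. Trh had reads in 7 ACV neurons and Ucn in none, which allows a share of up to 3.06%.

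Several further genes had large folds. Arg1, an arginase known from axon injury and macrophages, was read in 37 ACV neurons (37.8%, 28.2% to 48.1%) at 82.96 ± 174.7 CPM, with 797 CPM in the highest and 0 in the median neuron. It had no read in ACP and was at 13.1 CPM in Laryngeal neurons. Its summed ACV level was 1887 times the floor of 3 counts over all ACP neurons, again no lower limit. Il17f, an interleukin gene, was read in 35 ACV neurons at 22.5 ± 42.4 CPM and in no neuron of either reference. Its summed level was 507 and 248 times the floor of 3 counts in ACP and in Laryngeal neurons. Tm4sf4 and Mia2 had no read in Laryngeal neurons, and their summed ACV levels were 685 and 502 times the Laryngeal floor. Both were read in ACP, at 30.9 and 24.7 CPM. Plcb4, a phospholipase C downstream of receptors that was picked after its values were seen, was at 386 ± 291 CPM in ACV against 43.005 in ACP and 63.7 in Laryngeal neurons. Ano2, a calcium-activated chloride channel, was at 94.9 ± 115.8 CPM and read in 68.4% of neurons, against 9.97 and 3.17 CPM. Dgkg, a diacylglycerol kinase, was at 270.1 ± 204.5 CPM against 63.1 and 12.9. The muscle myosin light chain gene Myl1 was at 118.3 ± 170 CPM, against 14.9 and 1.57.

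The largest folds rested on few neurons in part. Of the 20 genes with the largest fold above ACP, 6 had at least 20% of their summed ACV level in 1 neuron, namely Atf3, Renbp, Ccl3, Trpc6, Spp1 and Mfap4. Atf3 was at 16.9 CPM with AMB055 and at 8.56 without it, and all 20 stayed above 2-fold without their top neuron. Of the 20 genes with the largest fold above Laryngeal neurons, 1, H2-Aa, had at least 20% of its sum in 1 neuron, and all 20 stayed above 2-fold without their top neuron. Cntn4, an adhesion molecule of axons, was among the genes lower than ACP that were still spread over neurons, read in 35 ACV neurons at 8.65 CPM against 170.95 CPM in ACP, as was Pcdh18, in 26 neurons at 6.08 against 127.6 CPM.

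The axon injury list gave 4 genes higher and 3 lower than ACP of 12, beside 5.78% and 7.69% of all genes. The higher ones were Arg1, Atf3, Ddit3 (33.9 against 14.5 CPM) and Ecel1, a membrane peptidase (log2 ratio 1.03), and the lower ones Gal, Vip and Adcyap1. Sprr1a, a further gene of that response, had no read in ACV. Against Laryngeal neurons 2 of 13 were higher, Arg1 and Klf6, and 3 lower, or 5 higher and 2 lower of 11 with Rn45s in the total. All neurons were chosen by tracer label, and unlabeled Amb neurons were not analysed here. Of the immediate early genes, Jun was highest at 167.9 ± 189.1 CPM, and Fos was lower at 18.5 ± 56.5 CPM, against 37.1 in ACP and 84.7 in Laryngeal neurons. In that list 1 gene was higher and 2 lower than in ACP of 13, and 2 higher and 3 lower than in Laryngeal neurons of 11, or 2 higher and 1 lower of 10 with Rn45s in the total. Counts this small do not set that list apart from all genes.

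Channel genes were mostly within 2-fold or lower. None of 31 potassium channel genes was 2-fold higher than in ACP and 7 were lower, beside 5.78% and 7.69% of all genes. The lower ones were led by Kcnj12 (15.2 against 90.6 CPM), an inward rectifier, and Kcnn2 (12.8 against 69.6 CPM), a calcium-activated channel of slow afterpotentials. Against Laryngeal neurons 1 of 33 was higher, Kcna5 (11.1 against 2.88 CPM), and 16 were lower, beside 7.2% and 12.6% of all genes. With Rn45s in the total 3 were higher and 8 lower of 30. Among sodium, calcium and HCN channels, Scn9a led at 301 ± 292 CPM. Cacna1e, an R-type calcium channel, was higher than in ACP (227 ± 284 against 83.95 CPM), and the T-type channel Cacna1g was lower than in both references (12.3 against 57.9 and 140.7 CPM). The list of these channels gave 2 higher and 4 lower of 22 against ACP, and 2 higher and 9 lower of 25 against Laryngeal neurons, beside the same shares over all genes.

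Receptors for trophic factors separated ACV from both references in different genes. Gfra1, the GDNF co-receptor, was at 71.3 ± 77.1 CPM in ACV, above ACP (18.9) and below Laryngeal neurons (770), where its partner Ret was also higher (927 against 115.9 CPM). Met, the receptor of hepatocyte growth factor, was at 27.9 ± 50.1 CPM against 35.3 in ACP and 1.87 in Laryngeal neurons. Lifr was lower than in both, at 34.8 ± 75.2 against 254 and 100.8 CPM, as was Ngfr, at 60.5 ± 82.7 against 220 and 253 CPM. In all 1 of 15 was higher and 5 lower than in ACP, beside 5.78% and 7.69% of all genes. In the Laryngeal comparison 2 were higher and 6 lower, beside 7.2% and 12.6%.

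Spread between ACV neurons was measured as the log10 of the squared coefficient of variation of a gene, less the running median of genes of like mean, and called wide from an excess of 0.5. Of 10974 genes 301 (2.74%) were wide. The markers were not among them, with excesses of 0.44 for Hoxa5, 0.25 for Cd9, 0.16 for Bche, 0.15 for Htr3b and -0.19 for Ghsr. The widest was Ttr, transthyretin, a product of the choroid plexus, with an excess of 2.01, where 4 neurons held 78.1% of the summed level and AMB149 reached 26242 CPM against a median of 14.9. Spp1 (1.601), Ptgds (1.49), Mbp of myelin (1.31), Gfap of astrocytes (1.30) and Apoe (1.20) followed, all known from glia or the coverings of the brain. Neuronal genes in this group were the substance P precursor Tac1 (1.38), where AMB079 held 41.01% of the sum, the enkephalin precursor Penk (1.03) and the glycine transporter Slc6a5 (0.97). Xist was wide (1.06), and at 10 CPM 31 neurons had Xist without listed Y-linked genes, 51 had Y-linked genes without Xist, 16 had neither and none had both, while at 1 read 9 neurons had both.

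A few libraries led many of the wide genes. AMB055 held the highest level of 91 of the 301 (30.2%), while it led 5.58% of all genes tested, and AMB111 and AMB054 led 39 and 32. These 3 libraries had 472962, 313668 and 370770 counts outside Rn45s, at the low end of the type. Without AMB055 228 genes were wide, 213 of them also wide with it. In the lists, 7 of 24 neuropeptide precursors tested were wide, 3 of 32 peptide receptors, 4 of 22 sodium and calcium channels and 3 of 8 other transmitter genes. So were 3 of 10 immediate early genes, 2 of 11 axon injury genes, 2 of 16 motor neuron transcription factors and 1 of 12 Hox genes (Hoxb5, at 0.72). None of the glutamate, GABA, acetylcholine, serotonin or potassium channel genes was wide. The share over all genes tested was 2.74%. Genes at the other end, picked after their values were seen, included Tomm6, a subunit of the mitochondrial import pore, at 14.5 ± 8.32 CPM with an excess of -1.17 and reads in 97 neurons, and the chromatin protein gene Cbx3 (-1.06).

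**Figure D4:**
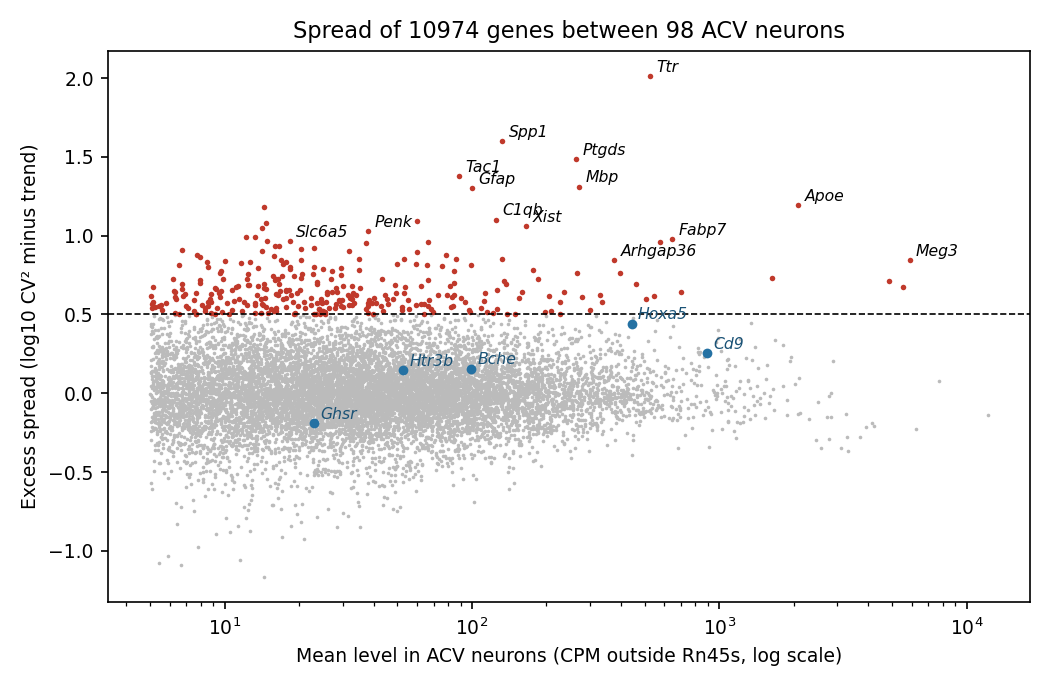
Excess spread between 98 ACV neurons against mean level (CPM outside Rn45s, log axis) for 10974 genes, with the 301 wide genes in red above the dashed line at 0.5 and the 5 markers in blue. Ttr (2.01) lies highest, other glial and choroid plexus genes such as Ptgds (1.49) and Apoe (1.20) lie well above the line, and all 5 markers lie below the line.

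Genes of other cells were read in many ACV neurons at uneven levels. The summed level of the 5 astrocyte genes (Gja1, Aqp4, Aldh1l1, Slc1a3 and Apoe) ran from 5.72 to 30322 CPM with a median of 967, close to medians of 1028 in ACP and 1109 in Laryngeal neurons. The 6 genes of oligodendrocytes and their precursors summed to 0 to 7662 CPM, with a median of 94.2. The 5 microglial genes (C1qa, C1qb, C1qc, Cx3cr1 and Csf1r) summed to 0 to 5093 CPM with a median of 16.5, against medians of 5.72 and 18.6 and highest sums of 648 and 1752 in ACP and Laryngeal neurons. All 5 were 2-fold higher in mean than in ACP, 1 was 2-fold higher than in Laryngeal neurons (4 with Rn45s in the total), and all 5 were wide, with AMB055 the top neuron of C1qa and C1qb. None of the 5 astrocyte genes differed 2-fold from either reference, though 4 of 5 were higher than in Laryngeal neurons with Rn45s in the total. The 3 endothelial genes were at a median of 0 with none above 5 CPM, and the 4 hemoglobin genes had no read in any type. Hoxa5 went against the astrocyte sum at rho -0.45 and against Apoe at -0.42 over the 98 neurons, and the part of glial RNA in the levels of Hoxa5 was not tested.

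Gene-gene correlation was described by Spearman's rho over the 98 ACV neurons, with no p, since neurons share animals, plates and amplification in ways the labels do not give. Of 55984071 pairs, 5526 (0.00987%) reached rho 0.6 and 267 (0.000477%) were at -0.6 or lower, and the median pair was at 0.05. The 5526 pairs joined 676 of 10582 genes, 609 of them in a single connected set. Without the 4 neurons that share rare genes 5356 of the pairs (96.9%) remained at 0.6. Pairs within ribosomal protein genes made up 704, within oxidative phosphorylation genes 616 and between these groups 559. The mitochondrial ATPase inhibitor Atpif1 had most partners, followed by Rpl38 and Mif, all 3 picked after their values were seen.

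The strongest pairs joined RNAs known to be retained in the nucleus, although retention was not measured here. Meg3 and Snhg11 had rho 0.98, Malat1 and Meg3 0.93 and Kcnq1ot1 and Meg3 0.85. The share of reads on 7 RNAs of this correlated group, chosen after the pairs were seen, ran from 0.0433% to 8.55% of counts outside Rn45s, with a median of 1.15%. It went with the mean exon length of the genes read in a neuron, weighted by reads (4.03 to 7.72 kilobases), at rho 0.88, and at 0.84 with these RNAs left out of that length. The share on 91 oxidative phosphorylation genes, which are short, went the other way at -0.84, and that on 89 ribosomal protein genes at -0.43, and at -0.83 and -0.40 with the genes of each group left out of that length. Given this length, 1216 of the 5526 pairs (22.01%) kept a partial rho of 0.6, and given genes read and the Rn45s share, 3414 (61.8%) did. The ribosomal protein share also went with the Rn45s share at rho 0.66. The most negative pairs, picked after their values were seen, were of Prune2 with Atpif1 and with Tmsb4x, both at -0.73.

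A further group joined membrane and secretory genes of the cholinergic neuron. Ache and the peptidase gene Ecel1 had rho 0.79, and Atp1b1, a sodium pump subunit, and Ndfip1 0.82. Given exon length these pairs were at 0.81 and 0.82, and given genes read and the Rn45s share at 0.72 and 0.79. Slc18a3 had its best partners in Ecel1 (0.67), Ache (0.65) and Vstm2a (0.63). The summed share of 9 genes of this group, chosen after the pairs were seen, went against that of the ribosomal protein genes at -0.65. It went with the counts outside Rn45s at 0.53 and with the Rn45s share at -0.48. With exon length it was at only 0.03, so a partial rho given that length could hardly move in this group. Tuba1c correlated with Gm1821 at 0.86, with Slc7a11 at 0.83 and with Eno1b at 0.82. Tuba1c, Gm1821 and Eno1b are members of families with near-identical copies, and how reads were divided among copies is not given in the sources used here. The share on 5 genes grouped as copies ran from 0.0030% to 0.185%, with a median of 0.068%. It was low in some libraries, as AMB063 (0.0072%) and AMB140 (0.0040%), and high in others, as AMB062 (0.10%) and AMB106 (0.185%). Whether this split follows library or plate was not tested. The 9 linked microglial genes formed a set of their own, whose share went with Apoe at rho 0.57.

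**Figure D5:**
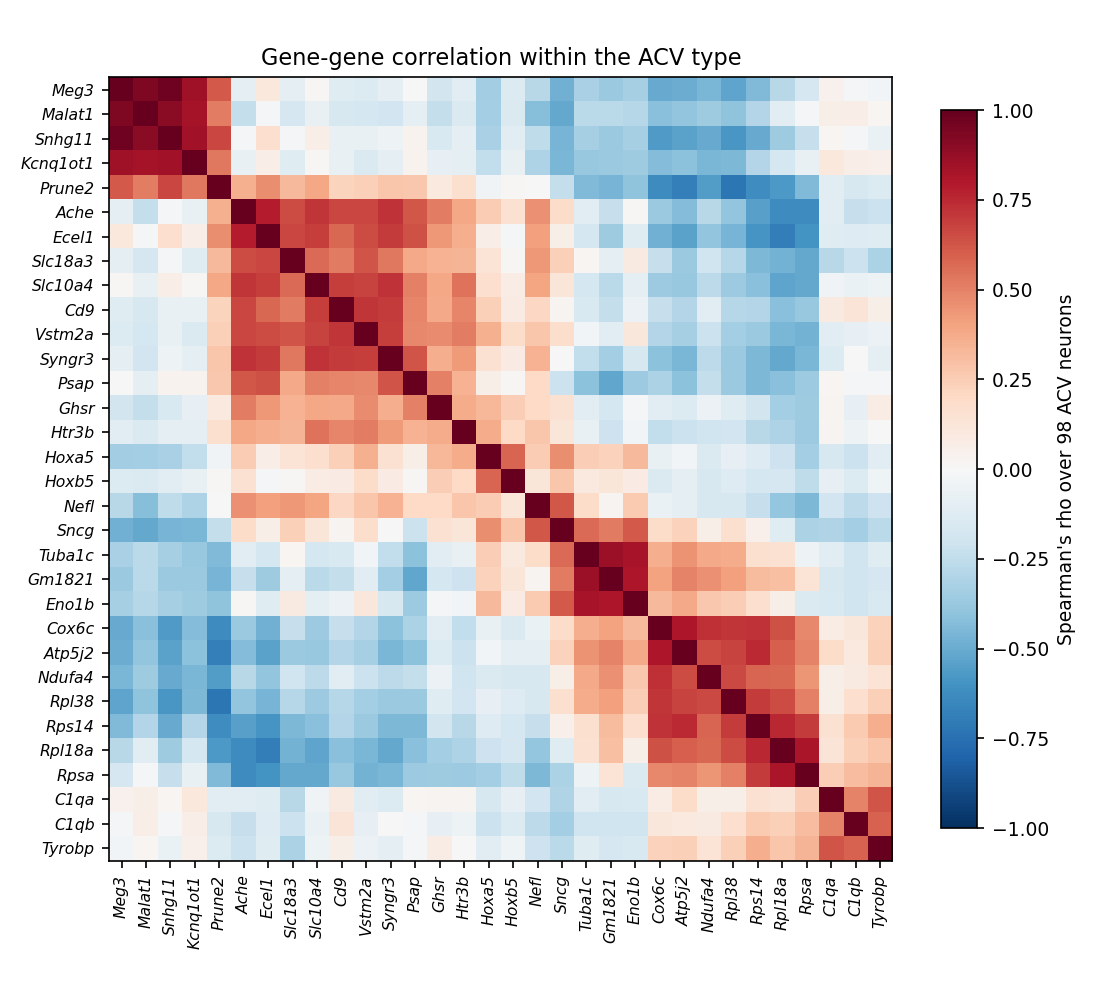
Spearman's rho over 98 ACV neurons between 32 genes chosen to represent the correlated groups, from -1 in blue to 1 in red. Blocks of nuclear RNAs, membrane and cholinergic genes with Cd9, gene copies, energy and ribosomal genes, and microglial genes follow the diagonal, with Meg3 and Snhg11 at 0.98 and Ache and Ecel1 at 0.79.

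The markers took different places in these groups. Cd9 belonged with the membrane genes, and its best partners were Vstm2a (0.72), the synaptic vesicle gene Syngr3 (0.70) and Slc10a4 (0.70). Given exon length these were at 0.72, 0.70 and 0.70, but Cd9 itself hardly went with that length (rho -0.08). Htr3b also had Slc10a4 (0.54) and Vstm2a (0.52) as its nearest genes. Hoxa5 was closest to Hoxb5, at rho 0.58 and still 0.57 given exon length, followed by Ckmt1 (0.53). Bche was closest to Tmem30a (0.51) and the semaphorin gene Sema5a (0.50), and Ghsr to Oprl1 (0.54), Cbln4 (0.53) and Orai2 (0.52). Among the markers themselves rho ran from 0.07 for Hoxa5 with Bche to 0.49 for Cd9 with Htr3b, with a median of 0.35 over 10 pairs. The median over all pairs tested was 0.05, but the markers come from these same counts, so this is no test. Given genes read and the Rn45s share, the lowest and highest pair were at 0.04 and 0.41. Hoxa5, Cd9, Ghsr and Htr3b also went with the counts outside Rn45s, at rho 0.31, 0.29, 0.39 and 0.41. The cholinergic list had a median of 0.21 over 36 pairs, the Hox list 0.17 over 55 and the motor neuron transcription factors 0.03 over 120.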

How the data were processed

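Single Amb neurons were sequenced by Smart-seq2. The authors trimmed reads with Skewer, aligned them with STAR 2.6.1d to mm10 and deposited raw counts per gene symbol; the counting program is not given in the sources used here. A deposited table of CPM, whose columns do not each sum to 1000000, was not used. Types are those of the deposited annotation. Counts were divided by each neuron's total outside Rn45s and multiplied by 1000000. Folds used means plus 1 CPM among genes with a mean of 5 CPM in either type. Exon lengths and positions came from GENCODE vM21 on mm10, with 97.6% of symbols matched. Rank correlations used genes read in at least 20% of ACV neurons. Named genes were the 5 markers, list members, the 30 highest per kilobase, the 20 largest folds, the 30 widest genes and the 30 strongest pairs with best partners; others are marked as picked after their values were seen. Members and the 28 gene lists were chosen with earlier results of these data known. A few list members are not reported here. Scripts were tested on simulated data. Python 3.11.15, numpy 2.4.6, scipy 1.17.1 and edgeR 4.0.16 (TMM alternative) were used.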

Additional observations from a re-analysis of the deposited data

How the results depend on the processing

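Of 72 alternatives to the counts of genes and pairs and to the marker levels, 57 left the value within 1.5 times for counts or within 1 SD for levels, and no marker ratio changed sign. Wide genes, 301 in the report, are given here as a share of the genes tested. Totals that include Rn45s gave 358 genes higher than ACP, 2073 higher and 441 lower than Laryngeal (the balance of 853 and 1494 turned over), 1.63% wide genes (1.87 times fewer) and 18955 pairs at rho 0.6. Keeping the 44 ACV neurons with at most 900 Apoe counts, with 26 ACP neurons, gave 1054 genes higher and 1457 lower than ACP, 1.74% wide genes (1.73 times fewer) and 18396 pairs. Without a minimum mean 1176 genes were higher than ACP and 1391 higher than Laryngeal. A minimum of 20 CPM left 2.24% wide (1.78 times fewer), of fewer genes tested. Pairs numbered 9734 by Pearson's r of log2 levels, 3344 after thinning and 1295 by partial rho given exon length, the last added after the data were seen, as was leaving out AMB055. With 0.1 CPM added the log2 ratios to ACP of Ghsr and Htr3b were 7.86 and 9.04, since ACP is at 0. The causes were not tested. With 1 neuron per sample and no animal named, no spread between animals is known. No paired analysis was possible because the labels give neurons no shared replicate numbers.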
